A study of Homo sapiens with 18 samples.

Results

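The comparison described here set T47D cells labelled PARP1 KO against WT T47D cells in the absence of a PARP inhibitor, and it used 6 of the 18 RNA sequencing libraries of the series. T47D is an established line of luminal, hormone receptor positive breast cancer. The 3 libraries labelled PARP1 KO came from the line named T47D JL and the 3 labelled WT from the line named T47D AAV, all after 48 h with DMSO, the solvent of the drugs. The other 12 libraries came from the same lines after 48 h with niraparib or olaparib at 10 μmol/L, with 3 libraries in each group, and they entered the same edgeR model, where they add to the filter on low counts and the estimate of the spread. Each genotype is represented by 1 line, the sources used here do not say whether these are clones, and other differences between the lines cannot be told apart from the loss of PARP1. The methods speak of separate dishes while the labels say nothing of cultures, so the P values given here measure only the spread between these libraries, which may be technical.

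PARP1 is a nuclear enzyme that binds DNA breaks and attaches chains of ADP-ribose, taken from NAD, to itself, to histones and to other proteins. The chains recruit repair factors, are built on serine with the help of HPF1, and are removed by PARG and ADPRS. PARP2 shares part of this work, and PARP1 has also been described at promoters and enhancers, so the question put to the DMSO libraries is how far transcript levels differ between the lines when no drug is present.

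Library totals with DMSO were between 30293678 and 52251288 counts. The 12 luminal markers chosen for the check of identity were all expressed, with ESR1 at 160 to 174 CPM (counts scaled by library size), GATA3 at 1015 to 1153 CPM and KRT18 at 1979 to 2332 CPM, and none of them was called. Of 20 markers of basal, mesenchymal, fibroblast, endothelial and immune cells, 16 stayed below 1 CPM in every DMSO library, among them CDH5 with 0 counts. Of the others, TP63 and TWIST1 reached at most 2.13 CPM and COL1A1 stood at 86.3 to 128 CPM. The WT libraries were not equally close to each other. The chi-square per gene was 19 between WT replicates 1 and 2 and 17.52 between WT replicates 1 and 3, against 3.277 between WT replicates 2 and 3, while pairs of PARP1 KO libraries gave 3.152 to 10.52. WT replicate 1 also had the highest share of mitochondrially encoded counts, 5.603% against 4.388% to 5.016% in the other DMSO libraries. Counts without this library are given beside the results.

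PARP1 itself, a gene of the minus strand of chromosome 1 (GRCh38, 226360691 to 226408093), was lower in every library of the knockout line. PARP1 KO libraries had 25, 24.2 and 25 CPM, and WT libraries had 347, 373 and 368 CPM. The groups were far apart and each was narrow, and the mean in PARP1 KO was 6.82% of the WT mean. The log2 fold change (PARP1 KO minus WT, as in all values that follow) was -3.87 ± 0.06 (standard error) with an adjusted P value of 1.7e-34 in edgeR, the lowest of all genes, and the exact permutation test over the 6 libraries gave a 2-sided P of 0.1, the smallest that 3 libraries against 3 allow. Transcript was thus still counted in the knockout line. Gene counts do not show whether it encodes a protein.

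The promoter of PARP1 is shown because it is the gene that separates the lines, with those of EGR1, MCM2 and MCM6. EGR1 had the largest rise among the called genes that averaged above 1 CPM. MCM2 and MCM6 represent the replication genes described further on. Each sequence covers 250 bases before and 50 bases after the start of the gene in RefSeq (GRCh38.p14), read 5′ to 3′ on the strand of the gene. Capitals in the MCM promoters mark matches on either strand to the E2F motif, searched as TTTCCCGC, TTTGGCGC, TTTCGCGC and TTTGCCGC, and capitals in EGR1 mark CArG boxes, the site of serum response factor. PARP1 has no match to the E2F letters in this window.
PARP1 (chr1:226408044-226408343, minus strand): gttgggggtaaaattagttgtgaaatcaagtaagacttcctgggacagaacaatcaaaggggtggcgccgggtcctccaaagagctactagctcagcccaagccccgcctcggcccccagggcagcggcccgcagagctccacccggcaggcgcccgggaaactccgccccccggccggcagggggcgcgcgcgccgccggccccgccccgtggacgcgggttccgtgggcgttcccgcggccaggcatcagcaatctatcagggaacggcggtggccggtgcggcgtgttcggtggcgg
EGR1 (chr5:138465229-138465528, plus strand): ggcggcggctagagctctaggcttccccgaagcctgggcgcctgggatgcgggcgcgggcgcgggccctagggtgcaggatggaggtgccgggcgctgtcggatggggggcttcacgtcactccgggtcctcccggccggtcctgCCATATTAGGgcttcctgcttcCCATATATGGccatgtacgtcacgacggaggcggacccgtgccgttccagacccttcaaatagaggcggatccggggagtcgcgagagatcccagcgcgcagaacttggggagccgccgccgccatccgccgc
MCM2 (chr3:127598161-127598460, plus strand): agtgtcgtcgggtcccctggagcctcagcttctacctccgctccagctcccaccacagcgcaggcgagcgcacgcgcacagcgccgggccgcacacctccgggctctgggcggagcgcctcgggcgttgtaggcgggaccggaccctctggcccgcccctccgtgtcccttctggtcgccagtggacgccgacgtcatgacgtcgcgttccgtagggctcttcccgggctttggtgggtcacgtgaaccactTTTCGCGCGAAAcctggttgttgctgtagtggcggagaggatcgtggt
MCM6 (chr2:135876394-135876693, minus strand): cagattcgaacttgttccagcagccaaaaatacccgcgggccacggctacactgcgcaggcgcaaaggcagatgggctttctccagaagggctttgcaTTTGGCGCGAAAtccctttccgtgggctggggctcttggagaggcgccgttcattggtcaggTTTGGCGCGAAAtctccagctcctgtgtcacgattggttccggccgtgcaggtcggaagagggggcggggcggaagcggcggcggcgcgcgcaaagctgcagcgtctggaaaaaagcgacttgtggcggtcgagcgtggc

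No other gene of the ADP-ribose system was called. A call here requires a change of more than 1.5-fold and, in edgeR, a Benjamini-Hochberg adjusted P under 0.05 across the genes tested. Of 26 listed writers, readers and erasers of ADP-ribose, 25 were tested, and PARP1 was the only one called, against 0.146% of all 24675 genes tested. It was also the only one whose adjusted P was under 0.05. An unadjusted P value below 0.05 was found for 6 of the 25, against 13.6% of all genes. PARP2, the closest relative of PARP1 in break repair, had 48.2, 44.9 and 51.3 CPM in PARP1 KO and 49.2, 48.6 and 51.4 CPM in WT. These libraries overlapped, and the 95% interval of the log2 difference ran from -0.16 to 0.07 around -0.05. HPF1, the cofactor for serine modification, had 26.7, 27.5 and 30.4 CPM in PARP1 KO and 23.2, 26.2 and 25.5 CPM in WT. Its difference was 0.17 (95% interval 0.02 to 0.33, adjusted P = 0.30 in edgeR), the highest of the list. For PARG, which degrades the chains, the interval was -0.11 to 0.12, and for the tankyrases TNKS and TNKS2, which modify targets in Wnt and telomere control, it was -0.27 to -0.02 and -0.16 to 0.06. PARP10, a mono-ADP-ribosyltransferase, had the lowest adjusted P value after PARP1 (0.095, log2 fold change -0.20 ± 0.06). MACROD2, an eraser, was at 2.77, 2.55 and 2.86 CPM in PARP1 KO and at 3.60, 3.99 and 3.37 CPM in WT. Its libraries did not overlap, yet the adjusted P value was 0.19 (log2 fold change -0.42). CHD1L, a chromatin remodeller that reads the chains, overlaps a neighbour on its strand over 63.2% of its exon bases, and its interval of -0.99 to 1.03 is uninformative.

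**Figure D1:**
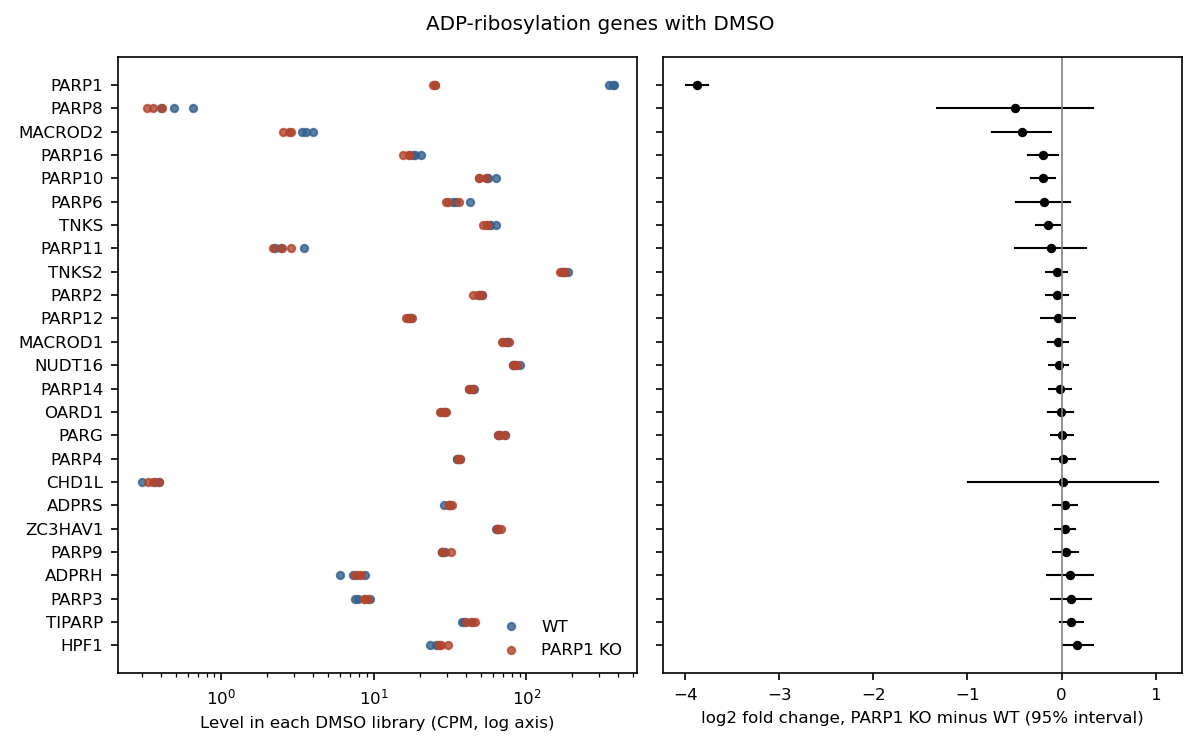
Left, the level of each of the 25 tested ADP-ribose genes in every DMSO library (CPM, log axis; blue, WT; red, PARP1 KO). Right, the log2 fold change of PARP1 KO minus WT with its 95% interval. PARP1 at -3.87 is the single gene far from 0, and the widest intervals belong to PARP8 and CHD1L, both below 1 CPM.

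Across the transcriptome, 36 of 24675 genes were called (0.146%), of which 15 were higher in PARP1 KO (0.0608%) and 21, PARP1 included, were lower (0.0851%). The other 35 were genes of low level and modest change. Their median level was 3.57 CPM, the highest was FAM111B at 46.0 CPM, and the largest changes were a 4.16-fold lower value (ITGB1BP2) and a 2.58-fold higher value (KCTD14). All 36 had no overlap between the 3 libraries of each genotype, which was also true of 19.3% of all genes tested. With the adjusted P value alone, 344 genes (1.39%) passed, 200 higher (0.811%) and 144 lower (0.584%), and 3354 (13.6%) had an unadjusted P value below 0.05. The median log2 fold change over all genes was -0.0016. Of 13502 genes at 1 CPM or more on average, 85.4% had a 95% interval of the difference that lay wholly within 1.5-fold either way, and of 9738 genes with at least 10 CPM it was 97.0%.

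**Figure D2:**
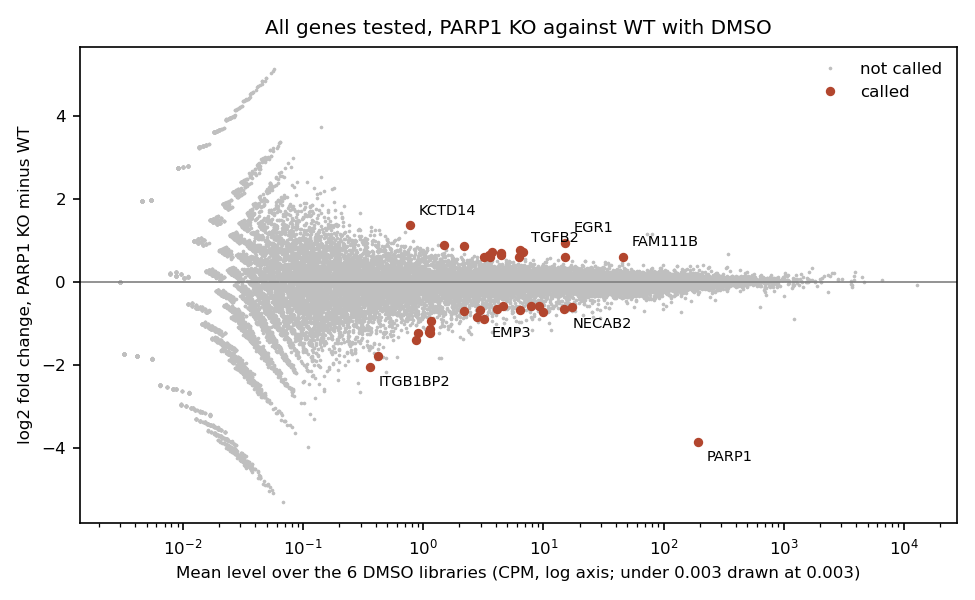
Log2 fold change of PARP1 KO minus WT with DMSO against the mean level over the 6 libraries (CPM, log axis), 1 point for each of 24675 genes. The 36 genes called are red, and apart from PARP1 they lie between 0.358 and 46.0 CPM.

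The number of genes called rested on single libraries. A fit of the 6 DMSO libraries alone called 25 genes, 8 higher and 17 lower. Without WT replicate 1 it was 5, namely PARP1 (-3.90), EMP3 (-0.88), ZC3H12C (0.64), RNF223 (0.64) and TGFB2 (0.73). Leaving out PARP1 KO replicate 1, 2 or 3 gave 12, 11 and 16 genes, and leaving out WT replicate 2 or 3 gave 46 and 37. In 26 of the 35 genes other than PARP1, WT replicate 1 was the WT library farthest from the PARP1 KO libraries. Of the 36, only PARP1, EMP3 and TGFB2 were called in all of these 6 fits, each of which leaves 1 genotype with 2 libraries. The others lost the call in at least 1 of the 6 fits and kept their direction in all of them.

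**Figure D3:**
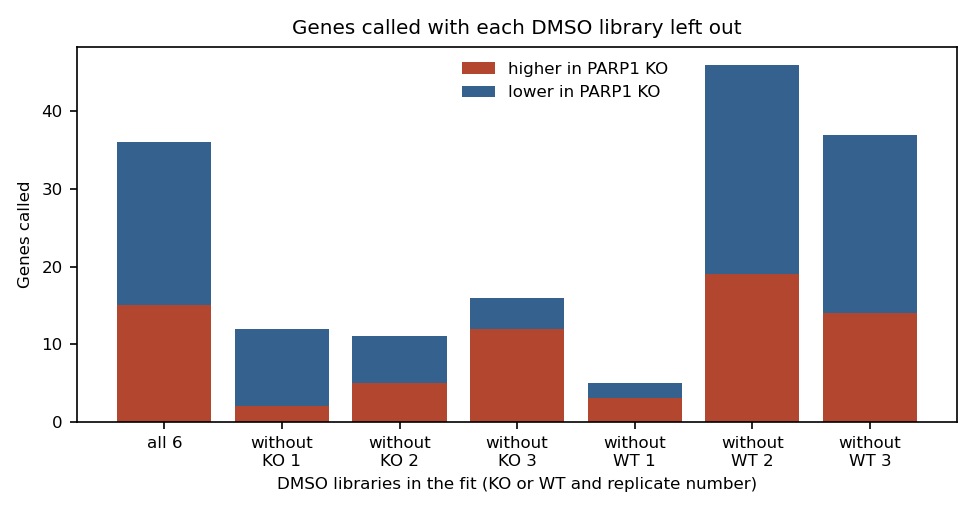
Number of genes called higher (red) and lower (blue) in PARP1 KO with all 6 DMSO libraries and with each library left out in turn. The total falls from 36 to 5 without WT replicate 1 and reaches 46 without WT replicate 2.

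Among the genes lower in PARP1 KO, EMP3, a small membrane protein of the PMP22 family, was called in each of the fits that left out a library. It was at 2.30, 2.19 and 2.20 CPM in PARP1 KO and at 4.2, 4.13 and 4.09 CPM in WT (log2 fold change -0.89 ± 0.16, adjusted P = 0.0019 in edgeR). Each group was tight and they lay well apart. With olaparib the log2 fold change of EMP3 was -0.21 (adjusted P = 0.47 in edgeR), and with niraparib it was 0.43 (adjusted P = 0.03). NECAB2, a neuronal calcium-binding protein, had 12.1, 12 and 10.4 CPM in PARP1 KO and 21.1, 16.9 and 16.6 CPM in WT (-0.66 ± 0.12, adjusted P = 0.0024). DBP, a transcription factor of the circadian output, had 14.5, 13.9 and 12.5 CPM in PARP1 KO and 23.4, 18.6 and 20.2 CPM in WT (-0.60 ± 0.10, adjusted P = 0.0019). In both, WT replicate 1 was the highest library, and without it the log2 fold changes were -0.55 and -0.51 and no longer called.

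ITGA10 and ITGB1BP2 were also among the genes called lower in PARP1 KO. ITGA10, the alpha chain of a collagen-binding integrin, had 7.37, 8.19 and 6.86 CPM in PARP1 KO and 15.8, 10.6 and 10.9 CPM in WT (-0.73 ± 0.15, adjusted P = 0.017 in edgeR). ITGB1BP2, which encodes the integrin-binding protein melusin, had 0.110, 0.131 and 0.163 CPM in PARP1 KO and 0.834, 0.465 and 0.449 CPM in WT (-2.06 ± 0.49, adjusted P = 0.022). It was chosen after its values were seen, because its change was the largest after PARP1, and its PARP1 KO values rest on 4, 4 and 6 counts. FBLN2, the matrix protein fibulin-2, changed by -1.13 ± 0.28 and PLA2G3, a secreted phospholipase, by -0.85 ± 0.20, both at a few CPM or less. HINT2, a mitochondrial nucleotide hydrolase, changed by -1.23 ± 0.30 and PJVK, a gasdermin family protein needed for hearing, by -1.21 ± 0.30, again at 0.517 to 1.93 CPM. None of these 6 genes was called without WT replicate 1, where the log2 fold changes were -0.53 for ITGA10, -1.74 for ITGB1BP2, -1.01 for FBLN2, -0.60 for PLA2G3, -1.15 for HINT2 and -1.05 for PJVK. ASNSP1, a pseudogene of asparagine synthetase, fell by 0.59 on the log2 scale (adjusted P = 0.0058; -0.48 and not called without WT replicate 1). Its reads are uncertain, because ASNS itself overlaps a neighbour over 49.3% of its exon bases and is listed at 0.245 to 0.700 CPM.

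Among the genes higher in PARP1 KO, FAM111B, a protease of the FAM111 family, had the highest level. It was at 59.8, 54.4 and 52.9 CPM in PARP1 KO and at 31.5, 39.3 and 38.3 CPM in WT (0.61 ± 0.09, adjusted P = 8.0e-04 in edgeR; 0.52 and not called without WT replicate 1). EGR1, an immediate early transcription factor, had 23.6, 21.6 and 14.9 CPM in PARP1 KO and 11.3, 12 and 7.75 CPM in WT (0.95 ± 0.20, adjusted P = 0.045), and with each library left out it was at 0.78 to 1.13 and called in 1 of the 6 fits, that without PARP1 KO replicate 3. It was not called with the 6 DMSO libraries alone. The spread within each genotype was wide for this gene, yet the lowest PARP1 KO library lay above the highest WT library. The 2 CArG boxes of its promoter start 105 and 83 bases before the gene start, and such a box is found in 1.29% of all 35116 promoters of the table.

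Apart from RNF223, the remaining genes that rose averaged below 10 CPM in either genotype. TGFB2, a ligand of the transforming growth factor beta family, was at 9.50, 7.67 and 7.78 CPM in PARP1 KO and at 5.17, 5.14 and 4.91 CPM in WT (0.72 ± 0.12, adjusted P = 8.3e-04 in edgeR), with 22.7% of its exon bases overlapping a neighbour. MET, the receptor for hepatocyte growth factor, had 5.45, 5.65 and 5.12 CPM in PARP1 KO and 2.77, 4.01 and 3.39 CPM in WT (0.66 ± 0.16, adjusted P = 0.025). FLNC, which crosslinks actin, changed by 0.71 ± 0.15, and NFE2L3, a relative of the oxidative stress factor NRF2, by 0.71 ± 0.16. ZC3H12C, of a family of RNA-degrading zinc finger proteins, had 7.59, 7.34 and 7.59 CPM in PARP1 KO and 5.33, 5.04 and 4.61 CPM in WT (0.59 ± 0.10, adjusted P = 0.0019). RNF223 (0.60 ± 0.10) and RNF150 (0.86 ± 0.19) encode RING finger proteins, PRTG (0.90 ± 0.24) a surface protein of the immunoglobulin superfamily, and FILNC1 (0.77 ± 0.16) a long noncoding RNA. TGFB2, ZC3H12C and RNF223 were also called without WT replicate 1, while MET (0.54), FLNC (0.60), NFE2L3 (0.68), RNF150 (0.72), PRTG (0.89) and FILNC1 (0.66) were not.

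**Figure D4:**
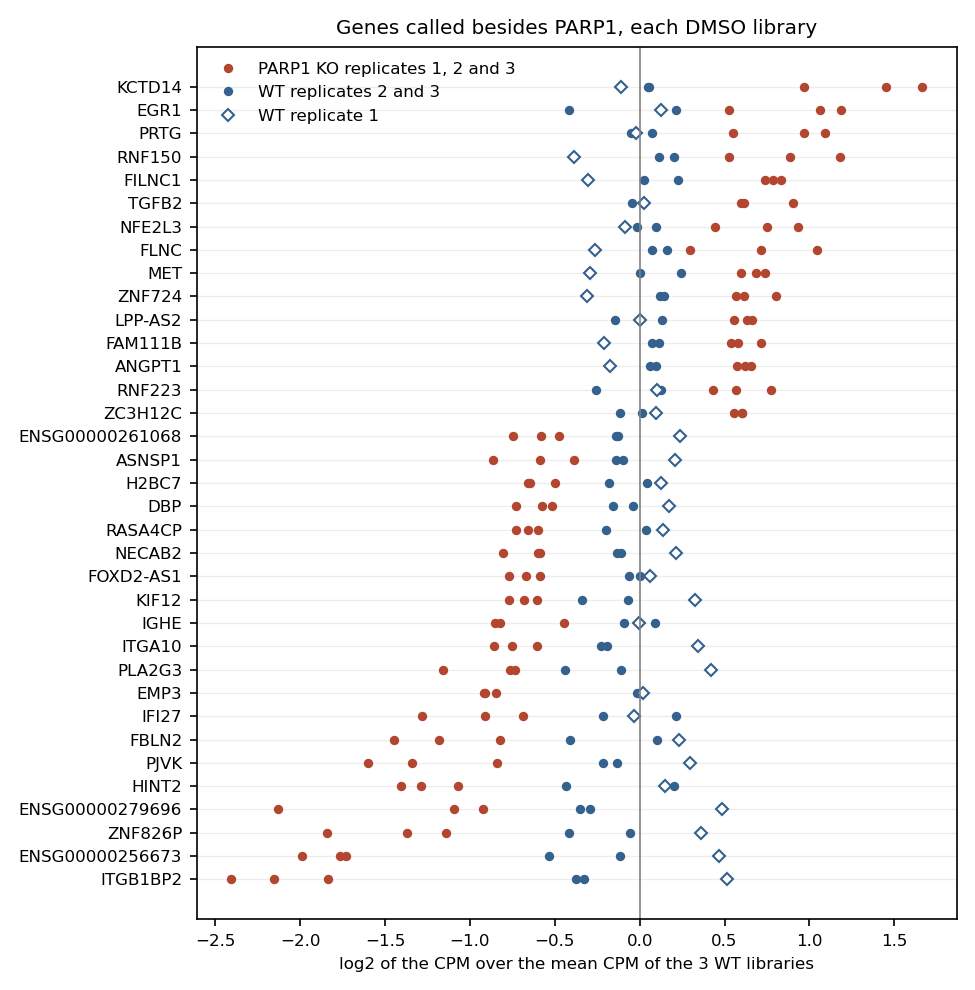
Level of the 35 genes called besides PARP1 in each DMSO library, as log2 of the CPM over the mean of the 3 WT libraries (red, PARP1 KO; blue, WT replicates 2 and 3; open diamonds, WT replicate 1). PARP1 KO and WT points do not overlap for any gene, and WT replicate 1 is the WT library farthest from PARP1 KO in 26 of the 35.

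Genes of DNA replication were slightly higher in PARP1 KO as a group. None of the 34 S phase genes was called, because none reached 1.5-fold, but 15 passed the adjusted P value alone and were higher, and 0 were lower, where 0.811% of all genes passed in the higher direction. The log2 fold change was above 0 for 32 of 34, with a median of 0.23 against -0.0016 over all genes. The summed level of the list was 2776, 2710 and 2731 CPM in PARP1 KO and 2231, 2423 and 2460 CPM in WT. The PARP1 KO libraries lay above all WT libraries, with WT replicate 1 the lowest.

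The members of the MCM2-7 helicase, which unwinds DNA at the fork, were higher for 5 of the 6 by the adjusted P value alone. MCM5 was at 55.4, 51.9 and 48.5 CPM in PARP1 KO and at 34.0, 38.3 and 40.3 CPM in WT (0.47 ± 0.07, adjusted P = 2.8e-04 in edgeR). MCM6 had 76.5, 76.4 and 80.3 CPM in PARP1 KO and 51, 59.1 and 64.2 CPM in WT (0.42 ± 0.06, adjusted P = 3.6e-04). MCM2 had 153, 148 and 140 CPM in PARP1 KO and 102, 112 and 121 CPM in WT (0.39 ± 0.05, adjusted P = 1.9e-04). MCM3 (0.29) and MCM4 (0.25) also passed the adjusted P value, and MCM7 was at 0.16. The others that passed were MCM10, CDC6, GINS2, GINS4, POLA1 and RFC2 of origin licensing and fork assembly, TK1 of thymidine salvage, and the regulators E2F1, E2F2 and CCNE2, with log2 fold changes of 0.21 to 0.34. Without WT replicate 1 the median of the list was 0.21 and 31 of 34 genes lay above 0, but only 4 passed the adjusted P value. Without PARP1 KO replicate 1, 8 passed. With the 6 DMSO libraries alone 11 passed.

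The E2F letters shown in the MCM2 and MCM6 promoters lie within 250 bases before or 50 bases after the start for 18 of the 29 S phase genes that have a promoter in the table (62.1%), and for 8 of the 11 that passed the adjusted P value and have one. Over all 27305 genes of the table it was 3.99%, and over 26 G2/M genes 11.5%. This describes the sequences only.

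Genes of mitosis did not share this direction. Of 32 G2/M genes, 0 were called or passed the adjusted P value in edgeR, 4 had an unadjusted P value below 0.05, and 29 lay below 0 with a median of -0.08 and a range of -0.15 to 0.04. The repair lists had 0 calls, where the unadjusted P was under 0.05 for 8 of 26 base excision genes, 10 of 34 homologous recombination and Fanconi genes and 3 of 17 end joining genes, against 13.6% of all genes. With the adjusted P value alone, the base excision genes UNG (0.29), FEN1 (0.29) and PCNA (0.20) were higher, where 0.811% of all genes passed as higher, and FEN1 and PCNA also serve replication. RBBP8, which starts end resection, was higher by 0.19 among the homologous recombination genes. Without WT replicate 1, 0 genes of either list passed in edgeR. None of the 17 end joining genes passed.

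The same genes were compared between the genotypes in the drug libraries, which share the edgeR model with the DMSO libraries. With olaparib, 4 of the 34 S phase genes lay above 0, the median was -0.14, and 13 passed the adjusted P value in edgeR as lower and 0 as higher, against 3.90% and 3.28% of all genes. With niraparib 5 of 34 lay above 0, the median was -0.33, and 28 passed as lower and 3 as higher, against 15.9% and 14.4% of all genes. The medians of this list thus had the opposite sign with either drug, and the same was true of the G2/M genes, at 0.20 with olaparib and 0.92 with niraparib.

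**Figure D5:**
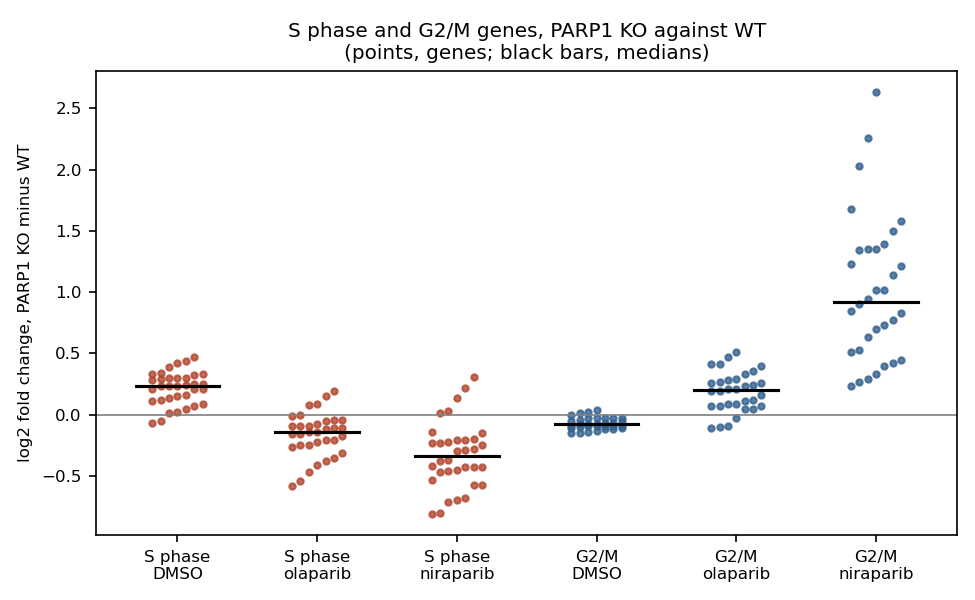
Log2 fold change of PARP1 KO minus WT for 34 S phase genes (red) and 32 G2/M genes (blue) with DMSO, olaparib and niraparib. Black bars are medians. The S phase median is 0.23 with DMSO and -0.14 and -0.33 with olaparib and niraparib.

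A few genes of the ATF4 and unfolded protein response were lower in PARP1 KO. Of 26 genes tested, 0 were called, 4 passed the adjusted P value as lower and 0 as higher, where 0.584% of all genes passed as lower, and 21 of 26 lay below 0 (median -0.09). The libraries of the genotypes did not overlap for 10 genes in the lower and 3 in the higher direction, where 19.3% of all genes tested and 26.6% of those of 1 CPM or more did not overlap in either direction. TRIB3, a pseudokinase induced by ATF4, had 126, 122 and 122 CPM in PARP1 KO and 162, 158 and 151 CPM in WT (-0.35 ± 0.06, adjusted P = 9.0e-04 in edgeR). CHAC1, which degrades glutathione, had 8.02, 7.93 and 8.71 CPM in PARP1 KO and 13.8, 12.2 and 10.5 CPM in WT (-0.56 ± 0.13, adjusted P = 0.021). HERPUD1, of protein degradation at the endoplasmic reticulum, was at -0.40 ± 0.08 and SESN2, a stress sensor of amino acid supply, at -0.36 ± 0.07. Without WT replicate 1, 1 of the 26 genes passed, and the median was -0.12. In the whole list, 13 genes passed as lower and 3 as higher with olaparib, against 3.90% and 3.28% of all genes, and 12 and 8 with niraparib, against 15.9% and 14.4%. The 4 genes that passed with DMSO were lower with olaparib too, at -0.55 for TRIB3 (adjusted P = 2.6e-08), -0.71 for CHAC1 (3.1e-04), -0.38 for HERPUD1 (0.0062) and -0.41 for SESN2 (3.5e-04). With niraparib TRIB3, CHAC1 and SESN2 were at -1.49, -0.77 and -1.01, while HERPUD1 was at -0.04.

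In the remaining lists 2 genes were called, where 0.146% of all genes were. IFI27, an interferon-induced gene, was the only 1 of 35 interferon-stimulated genes called, at 0.630, 0.816 and 0.953 CPM in PARP1 KO and 1.5, 1.78 and 1.32 CPM in WT (-0.95 ± 0.25, adjusted P = 0.045 in edgeR). This call was lost with the 6 DMSO libraries alone, with the replicate block, in DESeq2 and in 5 of the 6 fits that left out a library, at log2 fold changes of -1.10 to -0.80. The median of that list was -0.02. EGR1 was the only 1 of 26 immediate early and ERK feedback genes called, while FOS had a log2 fold change of 0.00 and DUSP1 of -0.19. In the p53 list of 24 genes AEN (0.39) and TP53I3 (0.36) were higher and SESN2 lower by the adjusted P value alone, with a median of -0.01. For this list and the next ones, 0.811% of all genes passed as higher and 0.584% as lower. The luminal list of 20 genes had KRT8 (0.23) and PRLR (0.21) as higher and ERBB3 (-0.24) as lower, and its summed level in CPM was 21642 to 22151 for the knockout libraries against 19391 to 20411 for the WT libraries. The hypoxia and glycolysis list of 30 had ADM (0.31), SLC2A1 (0.29) and ENO1 (0.18) as higher and KDM3A (-0.23) as lower. Without WT replicate 1, 0 genes of the interferon, immediate early, p53, luminal and hypoxia lists passed in edgeR.

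Sterol genes, the subject of the series, did not separate the lines without drug at these thresholds. Of 20 sterol synthesis enzymes and of 22 genes of sterol sensing, uptake and efflux, 0 were called or passed the adjusted P value in edgeR, with 2 in each list at an unadjusted P value below 0.05 and medians of -0.04 and -0.05. Every log2 fold change in either list lay between -0.25 and 0.16. The EGF ligand and receptor, HOX and drug metabolism lists had 0 calls and 1 gene each that passed the adjusted P value, ERBB3, HOXB2 (-0.21) and SULT1A1 (-0.25), and 0 without WT replicate 1. The lists of NAD metabolism (20 tested), estrogen receptor targets (29), basal (16), mesenchymal (17) and stromal or immune markers (14), antigen presentation (23), NF-kB targets (22), NRF2 targets (23), cell junctions (29), Wnt genes (23), cancer-testis genes (22) and mitochondrially encoded genes (13) had no gene that passed, with 1, 5, 3, 2, 0, 0, 3, 3, 8, 3, 2 and 0 genes at an unadjusted P value below 0.05, against 13.6% of all genes. In all, 3 of the 673 genes of the 29 lists were called, namely PARP1, IFI27 and EGR1, against 0.146% of all genes tested.

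The genome was scanned for stretches that differ between the lines. The median log2 fold change of a chromosome lay between -0.021 and 0.037 over genes of at least 1 CPM, and at most 0.342% of the genes of a chromosome were called. No run of 31 neighbouring genes had a median further than 0.25 from that of all such genes. The extremes were -0.18 on chromosome 11, around MIR210HG, and 0.19 on chromosome 5, around the PCDHB genes. Of the 24 other tested genes that start within 1 Mb of PARP1, 0 were called or passed the adjusted P value in edgeR. An unadjusted P value below 0.05 was found for 5 of them, against 13.6% of all genes. The 16 with at least 1 CPM lay between -0.29 and 0.16. No gene that averaged 1 CPM or more in 1 genotype had 3 counts or fewer in every library of the other, with or without a test, and the same held at a limit of 10 counts.

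Few of the 36 genes were called again in the same direction in the drug libraries, in which 207 genes (0.839%) were called between the genotypes with olaparib and 2253 (9.13%) with niraparib. Of the 36, 5 were also called with olaparib, 4 in the same direction, and 18 with niraparib, 7 in the same direction and 11 in the opposite one. The sign alone was shared by 58.3% with olaparib and 33.3% with niraparib. Of 339 genes that passed the adjusted P value and averaged 1 CPM or more, 70.2% had the same sign with olaparib and 47.8% with niraparib, against 52.5% and 49.4% of all genes at that level. The genotype difference itself changed, by the interaction term, for 11 of the 36 with olaparib and 26 with niraparib, where 0.657% and 8.88% of all genes did. Since the 36 were selected in DMSO libraries that also enter the interaction, these shares are not independent of the selection.

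In all, 3 genes were called in the same direction with DMSO, olaparib and niraparib, and they were PARP1, IGHE and ANGPT1; the latter pair was chosen after its values were seen. IGHE, the constant region of the immunoglobulin E heavy chain, had 1.53, 1.99 and 1.5 CPM in PARP1 KO and 2.70, 2.54 and 2.89 CPM in WT with DMSO (-0.70 ± 0.18, adjusted P = 0.036 in edgeR). With olaparib it had 4.26, 2.92 and 3.0 CPM against 8.06, 6.12 and 7.08 CPM, and with niraparib 3.01, 2.37 and 2.01 CPM against 10.7, 11.7 and 11.1 CPM. WT was higher in all 3 settings, without overlap. ANGPT1, a ligand of the endothelial receptor TIE2, had 4.19, 4.34 and 4.44 CPM in PARP1 KO and 2.50, 3.02 and 2.94 CPM in WT with DMSO (0.61 ± 0.16, adjusted P = 0.045). Its log2 fold changes were 0.64 with olaparib and 1.04 with niraparib. With DMSO, both IGHE (-0.83 to -0.63) and ANGPT1 (0.53 to 0.66) lost the call with any of the 6 libraries left out and with the 6 DMSO libraries alone, and ANGPT1 also with the replicate block. TGFB2 was called with DMSO and with olaparib (0.72 in both) and was at -0.33 with niraparib, where PARP1 KO libraries had 9.08, 9.01 and 8.97 CPM and WT libraries 9.94, 12.6 and 11.4 CPM.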

How the data were processed

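Polyadenylated RNA of the 18 libraries was sequenced. The authors trimmed the reads, mapped them to hg38 (GRCh38) with STAR and counted them per gene with featureCounts 2.0.0, and deposited raw counts for 58884 gene identifiers, 58472 with a symbol. Reads in exons of more than 1 gene of a strand were not counted, and reads from near-identical copies are uncertain. Labels and methods differ on RNA input, growth medium and extraction kit.

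Testing used edgeR 4.0.16 (R 4.3.3) on genes whose counts summed to over 10, in 1 model of the 6 groups with TMM factors, robust quasi-likelihood F tests and adjustment by Benjamini-Hochberg. The biological coefficient of variation was 7.236%. CPM use TMM library sizes, except for the markers of identity, which use raw totals. Gene lists were described by counts and medians. In simulated counts for this comparison, 95 of 100 genes changed by 1 on the log2 scale were recovered, and 100 of 100 changed by 2. Among 24126 genes tested, 4 other genes were called. The changed genes averaged at least 1 CPM, and no simulated library stood apart as WT replicate 1 did. Smaller changes and genes of lower level were therefore not covered. Genes named were PARP1, the ADP-ribose list, the 8 genes with the largest change and the 6 with the highest level per direction among called genes of at least 1 CPM, and called members of lists. The genes, lists and tests were chosen with earlier results of these data known. Alternatives were RLE size factors, filterByExpr, no filter, DESeq2 1.42.0, the 6 DMSO libraries alone, the replicate number as a block, other thresholds, window sizes and count limits, and each library left out. Labels name no batch. Some genes are not reported here.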

Additional observations from a re-analysis of the deposited data

Results flagged for a closer look

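For the genes called with DMSO, the genotype difference differed between DMSO and drug by the interaction term of the same edgeR model (adjusted P value below 0.05 and more than 1.5-fold), with 26 genes for niraparib and 11 for olaparib. The values below are the log2 genotype difference with drug minus that with DMSO. The genes were selected in the DMSO libraries, which enter the interaction too, so these values are not independent of the selection.

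With niraparib the difference was raised for genes lower in PARP1 KO with DMSO, by 3.14 for ITGB1BP2, 2.32 for PLA2G3, 2.16 for H2BC7, 1.84 for PJVK, 1.81 for NECAB2, 1.54 for HINT2, 1.45 for ENSG00000261068, 1.41 for FBLN2, 1.41 for FOXD2-AS1, 1.32 for EMP3, 1.26 for ZNF826P, 1.03 for ITGA10, 1.03 for KIF12, 0.97 for RASA4CP and 0.65 for DBP. IGHE was the exception among them at -1.49. For genes higher in PARP1 KO with DMSO the value was -2.55 for KCTD14, -1.94 for RNF223, -1.78 for ZNF724, -1.75 for ZC3H12C, -1.66 for PRTG, -1.37 for FAM111B, -1.26 for RNF150, -1.05 for TGFB2, -0.88 for FLNC and -0.76 for NFE2L3.

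With olaparib it was 2.36 for ENSG00000256673, 1.93 for PJVK, 1.28 for H2BC7, 1.12 for NECAB2, 0.93 for KIF12 and 0.65 for ENSG00000261068, and -1.82 for KCTD14, -0.92 for ZNF724, -0.89 for RNF223, -0.88 for ZC3H12C and -0.74 for FAM111B.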

How the results depend on the processing

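Of the 36 genes called (15 higher, 21 lower), the adjusted P value alone gave 344 (200 and 144), a log2 change above 1 gave 9 (1 and 8), one above 1.5 gave 3 (0 and 3), and no filter on low counts gave 102, of which 80 were lower. The 6 DMSO libraries alone gave 25, of which 8 were higher and 20 were among the 36, and RLE, filterByExpr and DESeq2 gave 37, 35 and 40, with 36, 32 and 26 of the 36. With 1 library left out the counts were 5 to 46, 2 to 19 for higher and 2 to 27 for lower. The replicate block gave 32. Same-numbered KO and WT deviations correlated at 0.473, -0.0974 and 0.336, and differently numbered ones at -0.508 to 0.445. Pairing of the libraries by replicate number is thus neither shown nor excluded. The log2 fold change of PARP1 stayed between -3.90 and -3.85. S phase genes that passed the adjusted P numbered 4 to 14 with 1 library left out, and ATF4 genes passing as lower 1 to 5. DESeq2 had 7 ATF4 genes lower and 1 higher, and the ATF4 median was -0.12 to -0.07 with 1 library left out. Added after the data were seen, leaving out a drug library gave 117 to 395 genes called with olaparib, and leaving out a DMSO library gave 6 to 10 of the 36 with an olaparib interaction. Over 420 values of the 35 other called genes, 175 lost the call and 0 changed sign. Counts limit low genes, with the interval inside 1.5-fold for 85.4% of genes of 1 CPM or more and 97.0% of those of 10 CPM or more.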

Other observations

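Of genes tied to the circadian clock besides DBP, all chosen after their values were seen, 2 are given here as passing the adjusted P value alone (edgeR). CIART, a repressor of the clock, was at 15.5, 15.3 and 13.9 CPM in PARP1 KO and at 23.6, 18.8 and 20 CPM in WT (log2 fold change -0.48, adjusted P = 0.022), and CRY2 was at -0.24 (adjusted P = 0.042). The values of others were mixed and missed the threshold, with PER1 at -0.38 (0.067), TEF at -0.22 (0.088), NR1D1 at -0.28 (0.26), PER2 and PER3 at -0.12 (0.47 and 0.36), NR1D2 at -0.10 (0.52), BHLHE40 at -0.03 (0.89), BHLHE41 at -1.47 on few counts (0.19), HLF at 0.30 (0.42) and NPAS2 at 0.34 (0.62). CLOCK (0.00, 95% interval -0.11 to 0.11), BMAL1 (-0.11, -0.36 to 0.13) and CRY1 (-0.01, -0.13 to 0.10) had intervals that include 0.

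Other genes, likewise chosen after their values were seen, that passed the adjusted P but did not reach 1.5-fold were RBL1, a repressor of E2F targets (0.51, adjusted P = 0.0024), CDC25A, a phosphatase that activates S phase kinases (0.40, 0.013), SMAD7, an inhibitor of transforming growth factor beta signalling (0.57, 0.0073), and CALD1, an actin-binding protein (0.54, 0.0015). GDF15, a stress-induced cytokine, was lower, at 19.4, 22.3 and 21.1 CPM in PARP1 KO against 27.7, 32.7 and 29.2 CPM in WT (-0.52, 0.041).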
